A study of Mus musculus with 9 samples.

Results

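C-type lectin receptors are surface proteins with which macrophages bind sugars and lipids of microbes and of damaged cells. The 10 genes described here were taken by symbol: Clec4a1, Clec4a2, Clec4a3, Clec4d, Clec4e, Clec4n, Clec5a, Clec7a, Clec10a and Clec12a. They are 10 of the 55401 genes in the deposited table, and 10 of 10 were among the 12819 genes with a mean of at least 1 TPM (a level corrected for transcript length and for the library's total) that were tested. RNA was sequenced from RAW264.7, a wild-type mouse macrophage line from a male tumour induced by Abelson leukemia virus. Cells received the solvent DMSO, LPS together with DMSO (DMSO+LPS, here LPS), or LPS with skatole, a methylated indole (LPS+Skatole, here LPS + Ska). The design asks how expression differed between the 3 treatments. Each group had 3 columns, numbered 5, 6 and 7. The labels give 24 h of treatment, while the methods section gives a longer time. No group received skatole alone, and the labels do not say whether columns of a group came from separate cultures, so p-values measure only the spread between these columns, which may be technical.

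Several of these receptors signal through partner chains that carry ITAM motifs. Mincle (Clec4e), MCL (Clec4d) and Dectin-2 (Clec4n) pair with the Fc receptor gamma chain (Fcer1g), and MDL-1 (Clec5a) pairs with DAP12 (Tyrobp), after which the kinase Syk can engage the Card9, Bcl10 and Malt1 complex. Dectin-1 (Clec7a), the receptor for fungal beta-glucan, carries an ITAM-like motif in its own tail. DCIR (Clec4a2) and MICL (Clec12a) carry inhibitory ITIM motifs, Clec4a1 and Clec4a3 resemble DCIR but lack that motif, and MGL1 (Clec10a) is an endocytic receptor for galactose-type sugars associated with alternative activation.

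The LPS and LPS + Ska columns are tied. Among genes above 0 TPM in replicates 6 and 7, replicate 5 was their mean for 17950 of 17950 genes in LPS and for 17658 of 17658 in LPS + Ska, within 1e-05 TPM. In DMSO no column was the mean of the others for more than 0.0614% of genes. For genes with a 0 in just replicate 6 or just replicate 7, the remaining column was 3 times replicate 5 for 3189 of 4042 genes in LPS and 3116 of 4047 in LPS + Ska, within 0.001. No more than 2 values per gene are thus independent in each tied group. The tests below use the columns as deposited, and the adjusted p after reducing each tied group to 2 recovered values is given beside the called changes between the LPS groups. TPM keeps no sequencing depth, so depth is unknown and no counting interval can be given.

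By GENCODE M21 on GRCm38 (mm10), 9 of the 10 genes lie on chromosome 6. Clec4a1, Clec4a3, Clec4a2, Clec4n, Clec4d and Clec4e lie in this order within chr6:122921848-123289870. Clec12a and Clec7a bound chr6:129342691-129472779, Clec5a lies at chr6:40574894-40585821, and Clec10a at chr11:70156197-70170834. Clec7a is annotated there as a polymorphic pseudogene. Shown next are the promoters, from RefSeq on GRCm38.p6, of Clec4d and Clec4e, neighbours whose levels rose in LPS + Ska against LPS, and of Clec12a and Clec7a, which were lower in LPS than in DMSO. Each window runs from 250 bases before to 50 after the RefSeq start, on the strand of the gene, and capitals mark matches on either strand to the motifs named afterwards. The windows are chr6:123261857-123262156 (plus strand) for Clec4d, chr6:123289822-123290121 (minus strand) for Clec4e, chr6:129349994-129350293 (plus strand) for Clec12a, and chr6:129472730-129473029 (minus strand) for Clec7a. The RefSeq start of Clec12a lies well inside the longer GENCODE gene, as does that of Clec4a2, whose window was searched but is not printed.
Clec4d: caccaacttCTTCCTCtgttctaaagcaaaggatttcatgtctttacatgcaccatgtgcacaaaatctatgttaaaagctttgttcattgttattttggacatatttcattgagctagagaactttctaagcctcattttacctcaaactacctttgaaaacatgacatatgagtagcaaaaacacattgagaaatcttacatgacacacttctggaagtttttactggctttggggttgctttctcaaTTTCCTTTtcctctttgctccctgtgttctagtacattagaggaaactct
Clec4e: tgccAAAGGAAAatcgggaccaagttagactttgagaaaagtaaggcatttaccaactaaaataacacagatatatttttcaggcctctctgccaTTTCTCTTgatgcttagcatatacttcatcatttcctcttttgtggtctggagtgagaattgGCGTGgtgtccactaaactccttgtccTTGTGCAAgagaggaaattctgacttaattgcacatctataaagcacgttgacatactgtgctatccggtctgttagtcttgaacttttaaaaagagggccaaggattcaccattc
Clec12a: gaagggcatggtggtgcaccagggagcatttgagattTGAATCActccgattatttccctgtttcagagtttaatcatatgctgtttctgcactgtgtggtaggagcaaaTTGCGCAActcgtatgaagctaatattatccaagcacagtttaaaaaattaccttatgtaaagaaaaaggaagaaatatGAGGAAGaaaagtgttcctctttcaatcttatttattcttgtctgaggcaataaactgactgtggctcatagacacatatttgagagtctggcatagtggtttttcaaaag
Clec7a: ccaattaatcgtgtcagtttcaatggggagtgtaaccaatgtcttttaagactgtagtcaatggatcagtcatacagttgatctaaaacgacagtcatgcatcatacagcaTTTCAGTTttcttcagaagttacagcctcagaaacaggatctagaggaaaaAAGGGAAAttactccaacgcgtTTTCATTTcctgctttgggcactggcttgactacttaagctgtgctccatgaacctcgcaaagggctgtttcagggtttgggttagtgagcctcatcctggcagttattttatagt

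The motif search covered the 8 of 10 genes found in a table of 27025 mouse promoters. The part of the interferon-stimulated response element spelled AANNGAAA occurred in 6 of the 8, Clec4a1, Clec4a2, Clec4d, Clec4e, Clec5a and Clec7a, and in 24.2% of all promoters. The PU.1 motif GAGGAAG occurred in Clec4a1, Clec4d, Clec5a and Clec12a and in 13.5% of all promoters. PU.1 is a transcription factor of the myeloid lineage. The C/EBP motif TTGCNNAA was found in Clec4e and Clec12a (10.8% of all promoters), the AP-1 motif TGANTCA in Clec4a2 and Clec12a (7.93%), and the STAT motif TTCNNNGAA in Clec4a2 alone of the 8 (8.47%). The aryl hydrocarbon receptor core GCGTG was found in Clec4a3 and Clec4e and in 32.5% of all promoters. The NF-kB consensus (4.35% of all promoters) and the Nrf2 element core TGACNNNGC (12.5%) had 0 matches in the 8 windows. In the 4 printed windows no matches overlapped. Clec4d held a PU.1 and an IRF match, and Clec7a held 3 IRF matches. A match describes letters only and says nothing of binding.

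Clec4d had the highest level of the 10 genes in DMSO, with 206 ± 3.87 TPM (mean ± SD, n = 3 columns). Clec5a (137 ± 3.21 TPM), Clec12a (124 ± 4.6 TPM) and Clec4e (93.1 ± 20.2 TPM) came next, followed by Clec7a with 31.1 ± 4.13 TPM. Clec4a3 (16.7 TPM) and Clec4a2 (14.6 TPM) came next and had overlapping columns. Clec10a (6.72 TPM), Clec4n (2.67 TPM) and Clec4a1 (1.59 TPM) were lowest, and the last pair overlapped. In LPS the order began with Clec5a (163 TPM), Clec4d (129.8 TPM), Clec4e (114 TPM) and Clec12a (52.6 TPM), each apart from the next. Lower down, the columns of Clec4a3, Clec4n and Clec7a overlapped between neighbours, and Clec10a was last at 0.42 TPM. In LPS + Ska, Clec4d was again first (375 TPM), ahead of Clec4e (181 TPM) and Clec5a (178 TPM), whose columns overlapped. Clec4a2, Clec4n and Clec4a3 overlapped between neighbours there. The share of cells that express a gene and the RNA per cell cannot be told apart in bulk RNA.

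**Figure D1:**
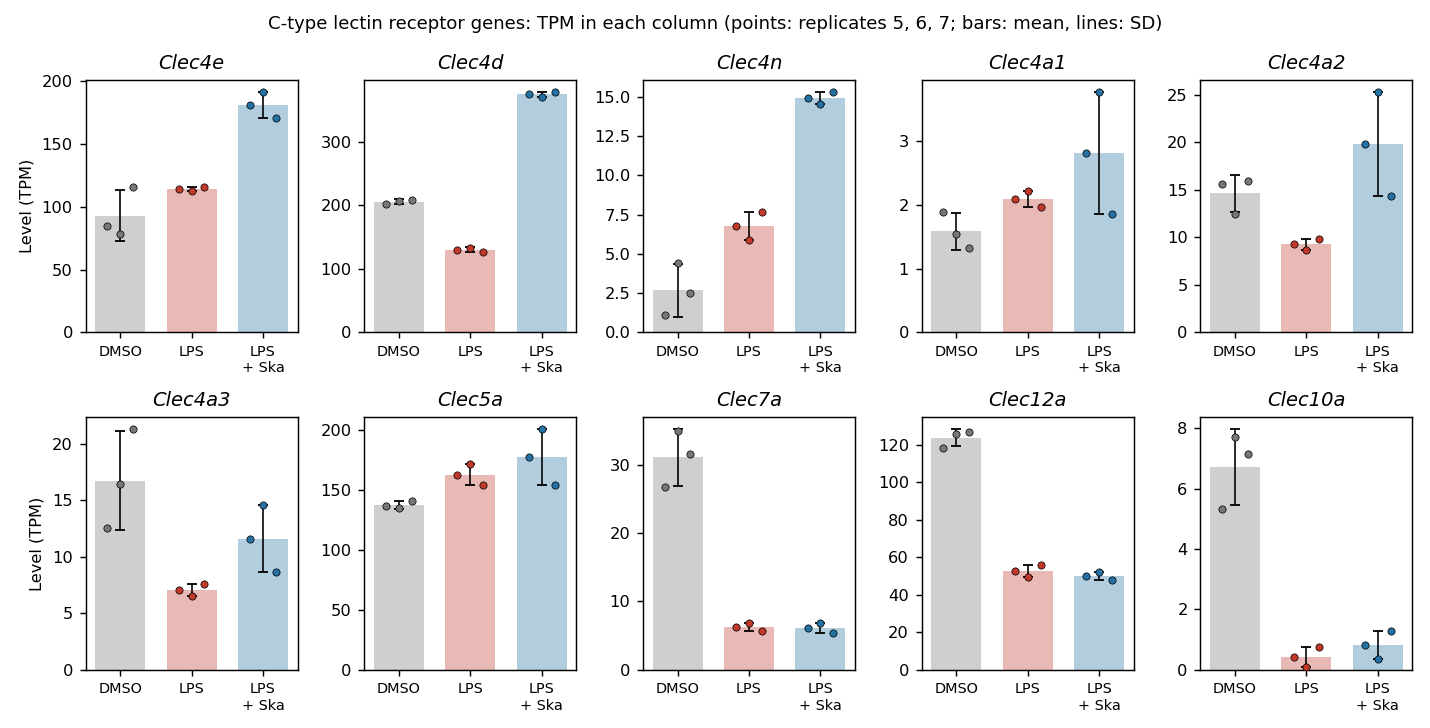
Level in TPM (vertical axis, a separate linear scale from 0 for each gene) of the 10 receptor genes in DMSO, LPS and LPS + Ska. Points are replicates 5, 6 and 7, bars the mean and lines the SD (n = 3 columns, of which at most 2 are independent in the LPS groups). Clec4d stood at 126 to 134 TPM in LPS and 370.3 to 379 TPM in LPS + Ska, while Clec7a stood below 7 TPM in both.

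The summed level of the 10 genes was 634 ± 35.4 TPM in DMSO, 492 ± 6.59 TPM in LPS and 839.5 ± 40.8 TPM in LPS + Ska. Clec4d held 32.5% of that sum in DMSO, 26.4% in LPS and 44.6% in LPS + Ska. Clec12a held 19.5%, 10.7% and 5.95%, and Clec7a 4.90%, 1.27% and 0.726% in the same order. Clec5a held the largest share in LPS, 33.1%, against 21.7% in DMSO and 21.2% in LPS + Ska. Shares are given as a description with no test.

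**Figure D2:**
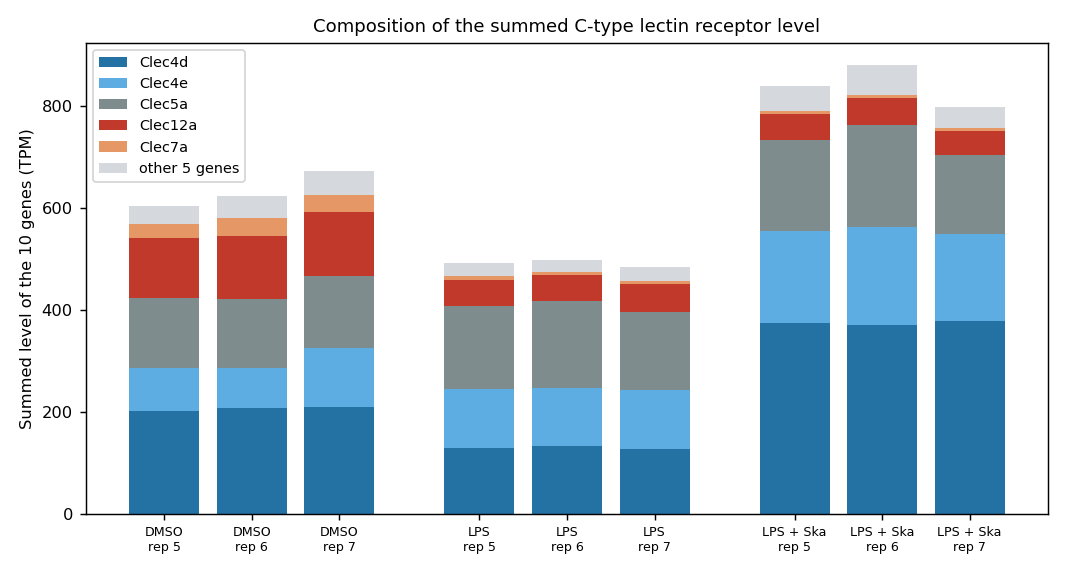
Summed level in TPM (vertical axis, from 0) of the 10 receptor genes in each of the 9 columns, split by gene, with Clec4a1, Clec4a2, Clec4a3, Clec4n and Clec10a drawn together. Clec4d is the largest block in the 3 DMSO columns and the 3 LPS + Ska columns, and Clec5a in the 3 LPS columns.

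In LPS against DMSO, 6 of the 10 genes were lower and 1 was higher. Clec10a, Clec7a, Clec12a, Clec4a3, Clec4d and Clec4a2 fell, and Clec4n, the Dectin-2 gene, rose. Clec10a reached the mean of 1 TPM needed for testing only through DMSO, so the filter favoured its falls against DMSO. Its calls against DMSO in both LPS groups were lost in 0 of 16 alternatives, no filter among them. Across all 12819 genes tested, 20.0% were called lower and 12.7% higher. A call required a Benjamini-Hochberg adjusted p below 0.05 in limma and a fold change above 1.5 or below 0.67, on the log2(TPM + 1) scale, which understates changes of low genes. The median difference of the 10 genes was -0.63 on the log2 scale, against -0.07 over all genes. The columns of LPS and DMSO did not overlap for 9 of the 10 genes. The share of all genes without overlap was not computed, so this count is a description only.

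When LPS + Ska was set against LPS, 5 of the 10 genes were higher, Clec4d, Clec4n, Clec4a2, Clec4e and Clec4a3. Over all genes, 3.35% were called higher. With the recovered values 3 of the 10 were called, Clec4d, Clec4a2 and Clec4e, where 362 of all 12819 genes were called higher. By limma, 0 of the 10 genes were called lower, and 0 were lower at an unadjusted p below 0.05, where 6.14% of all genes were called lower. The median difference of the 10 genes was 0.49 on the log2 scale, against -0.10 over all genes. The columns did not overlap for 5 of the 10 genes, again with no share over all genes computed.

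Against DMSO, 3 of the 10 genes were higher in LPS + Ska (Clec4n, Clec4e and Clec4d), where 11.4% of all genes were called higher. The 3 lower genes were Clec7a, Clec10a and Clec12a, where 25.3% of all genes were called lower. The columns did not overlap for 7 of the 10 genes, a count with no share over all genes beside it. This comparison shares its samples with the others, so its values are not independent of theirs. Median-ratio scaling moved the median of all genes in it from -0.18 to -0.01 on the log2 scale. The higher share of all called genes then went from 31.0% to 48.4% here, and from 35.3% to 52.0% in LPS + Ska against LPS.

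**Figure D3:**
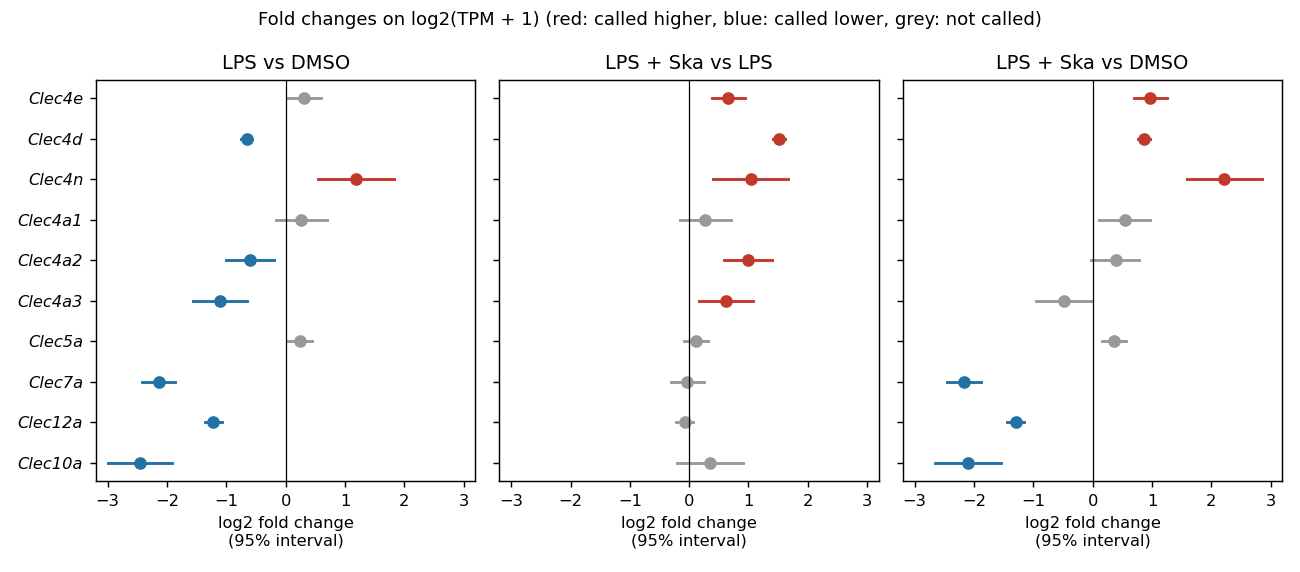
Difference in log2(TPM + 1) (horizontal axis) of each receptor gene in the 3 comparisons, with points for limma estimates and lines for 95% intervals. Red marks genes called higher, blue genes called lower and grey genes not called; in LPS + Ska against LPS the 5 red genes lie in the Clec4a1 to Clec4e region, and the intervals of Clec7a and Clec12a, whose sign flips under median-ratio scaling, span 0.

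Clec4d encodes MCL, which associates with Mincle and takes part in recognition of mycobacterial glycolipid. It was measured at 202, 207 and 209 TPM in DMSO (replicates 5, 6 and 7), 129.8, 134 and 126 TPM in LPS, and 375, 370.3 and 379 TPM in LPS + Ska. The 3 LPS columns were the lowest and the 3 LPS + Ska columns the highest, with no overlap between any groups. Clec4d fell by 0.66 on the log2 scale in LPS against DMSO (SE 0.04, adjusted p = 2.6e-06 by limma). It was 2.89-fold higher in LPS + Ska than in LPS, a log2 difference of 1.52 (SE 0.04, adjusted p = 2.6e-07, or 4.3e-05 with the recovered values). The 17 alternative settings gave 1.5 to 1.62 for that difference. Against DMSO, LPS + Ska was 0.86 higher (adjusted p = 5.6e-07).

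Clec4e encodes Mincle, a receptor for mycobacterial cord factor and for a nuclear protein released from dying cells. Its columns were 84.7, 78.5 and 116 TPM in DMSO, 114, 113 and 116 TPM in LPS, and 181, 192 and 171 TPM in LPS + Ska. DMSO replicate 7 reached the LPS columns, and the LPS + Ska columns lay above all others. In LPS against DMSO the log2 difference was 0.31 (95% interval 0.04 to 0.59, adjusted p = 0.051 by limma), which did not pass the test. The difference between LPS + Ska and LPS was 0.66 (SE 0.12, adjusted p = 0.0048, or 0.026 with the recovered values), and the call was kept in 17 of 17 alternatives. Against DMSO it was 0.97 (adjusted p = 0.00011).

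Clec4n, the gene of Dectin-2, which binds mannose-rich fungal glycans, was low in DMSO at 1.09, 4.45 and 2.48 TPM. It measured 6.79, 5.89 and 7.69 TPM in LPS and 14.9, 14.5 and 15.3 TPM in LPS + Ska, so the 3 groups stood apart in rising order. The log2 difference was 1.18 in LPS against DMSO (SE 0.28, adjusted p = 0.0052 by limma) and 2.22 in LPS + Ska against DMSO (adjusted p = 0.00011). Between LPS + Ska and LPS it was 1.04 (SE 0.28, adjusted p = 0.024, or 0.088 from recovered values). It was not called in 7 of 17 alternatives, and the adjusted p over the 17 ran from 0.0013 to 0.088.

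Clec5a encodes MDL-1, which takes part in the response to flaviviruses and in inflammatory joint disease. It was high throughout, at 136, 135 and 141 TPM in DMSO, 163, 172 and 154 TPM in LPS, and 178, 201 and 154 TPM in LPS + Ska. Both LPS groups lay above DMSO and overlapped each other. Its fold change stayed under 1.5 in each comparison. The log2 difference was 0.24 in LPS against DMSO (adjusted p = 0.038 by limma) and 0.36 in LPS + Ska against DMSO (adjusted p = 0.0056). From LPS to LPS + Ska it was 0.12, with a 95% interval of -0.08 to 0.32.

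Among the DCIR-like genes, Clec4a2 encodes the inhibitory receptor DCIR. It measured 15.6, 12.4 and 15.9 TPM in DMSO, 9.26, 8.71 and 9.81 TPM in LPS, and 19.8, 25.3 and 14.3 TPM in LPS + Ska. LPS was the lowest group, and LPS + Ska, with a wide spread, overlapped DMSO. Clec4a2 fell by 0.60 on the log2 scale in LPS against DMSO (SE 0.18, adjusted p = 0.016 by limma), a call lost in 4 of 17 alternatives. It was 2.14-fold higher in LPS + Ska than in LPS (log2 difference 0.99, SE 0.18, adjusted p = 0.0040, or 0.0066 with the recovered values), and 17 of 17 alternatives called it. Against DMSO the log2 difference was 0.39, with a 95% interval of -0.02 to 0.79. Of the 50-base windows of its transcripts, 6.69% also occur in other genes, mainly Clec4a4, whose highest column was 0.29 TPM.

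Clec4a3 measured 12.5, 16.4 and 21.3 TPM in DMSO, 7.05, 6.50 and 7.61 TPM in LPS, and 11.6, 14.5 and 8.65 TPM in LPS + Ska. LPS again had the lowest columns, and those of LPS + Ska overlapped DMSO. It fell by 1.11 on the log2 scale in LPS against DMSO (SE 0.21, adjusted p = 0.0012 by limma). Between LPS + Ska and LPS the log2 difference was 0.62 (SE 0.21, adjusted p = 0.049), close to the threshold. It was not called in 10 of 17 alternatives, with an adjusted p of 0.084 from recovered values, 0.076 with a replicate block, and 0.020 to 0.13 over the 17. Clec4a1 was near the filter on low values, at 1.89, 1.55 and 1.32 TPM in DMSO, 2.10, 2.23 and 1.97 TPM in LPS, and 2.82, 3.78 and 1.86 TPM in LPS + Ska. Clec4a1 was called in no comparison, with log2 differences of 0.26, 0.27 and 0.54 for LPS against DMSO, LPS + Ska against LPS, and LPS + Ska against DMSO.

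Clec7a, the gene of Dectin-1, measured 26.7, 34.9 and 31.6 TPM in DMSO, 6.23, 6.85 and 5.61 TPM in LPS, and 6.09, 6.86 and 5.33 TPM in LPS + Ska. Both LPS groups lay far below DMSO and overlapped each other. Clec7a was 0.201 times its DMSO level in LPS, a log2 difference of -2.14 (SE 0.13, adjusted p = 1.2e-06 by limma), and the difference in LPS + Ska was -2.17 (adjusted p = 9.7e-07). Between LPS + Ska and LPS the difference was -0.03, with a 95% interval of -0.31 to 0.25, and its sign changed under median-ratio scaling (0.06).

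Clec12a, the gene of MICL, an inhibitory receptor for uric acid crystals, measured 119, 126 and 127 TPM in DMSO, 52.6, 49.3 and 55.8 TPM in LPS, and 49.9, 51.9 and 47.9 TPM in LPS + Ska. It fell by 1.22 on the log2 scale in LPS (SE 0.06, adjusted p = 5.5e-07 by limma) and by 1.29 in LPS + Ska (adjusted p = 4.2e-07) against DMSO. Both LPS groups overlapped, with a log2 difference of -0.07 and a 95% interval of -0.22 to 0.07, which became 0.03 under median-ratio scaling. Clec10a was lower still. It measured 5.31, 7.70 and 7.15 TPM in DMSO, 0.42, 0.102 and 0.737 TPM in LPS, and 0.824, 0.354 and 1.29 TPM in LPS + Ska. Its log2 difference was -2.45 in LPS (SE 0.24, adjusted p = 2.8e-05) and -2.10 in LPS + Ska (adjusted p = 6.2e-05) against DMSO. Between the LPS groups it was 0.35, with a 95% interval of -0.20 to 0.90. Of the 50-base windows of Clec10a transcripts, 9.02% also occur in other genes, mainly its neighbour Mgl2, which reached 0.245 TPM in DMSO and was listed at 0 in the LPS groups.

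The 5 called rises in LPS + Ska against LPS lay in the 368.0 kb region from Clec4a1 to Clec4e, which holds 6 of the 10 genes and the lectin genes Clec4a4, Clec4b1 and Clec4b2. Regions were compared after these values had been seen, and the difference between regions was not tested. Clec4b1 and Clec4b2 were listed at 0 in all columns and Clec4a4 at 0 in DMSO and LPS. Within 200 kb of the region, 4 other genes were tested. Their log2 differences in LPS + Ska against LPS were 0.18 for Slc2a3, -0.33 for Foxj2, -0.21 for C3ar1 and 0.14 for Necap1, and none was called. In the 130.1 kb region from Clec12a to Clec7a, the genes between them did not reach the filter, with at most 2.0 TPM for Clec1b. Gabarapl1, near that region, fell by 0.91 on the log2 scale in LPS against DMSO and was not called in LPS + Ska against LPS (0.43).

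**Figure D4:**
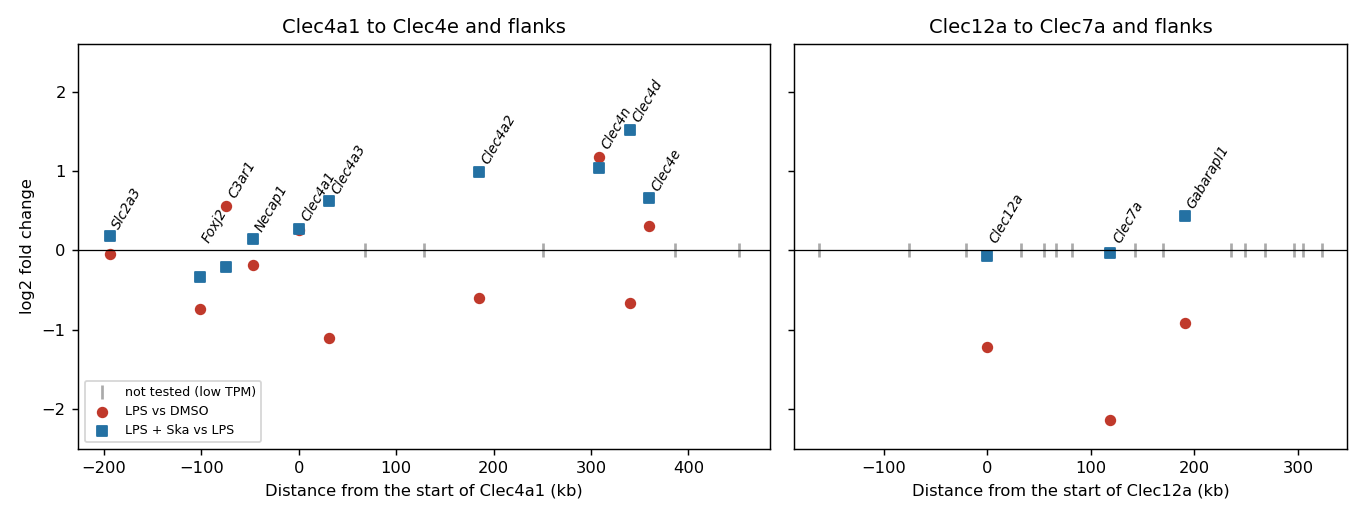
Difference in log2(TPM + 1) (vertical axis) against distance in kb from the start of Clec4a1 (left) and of Clec12a (right), for genes within 200 kb of each region. Circles show LPS against DMSO, squares LPS + Ska against LPS, and grey ticks genes not tested; squares of Clec4a3, Clec4a2, Clec4n, Clec4d and Clec4e lie between 0.62 and 1.52, and those of Clec12a and Clec7a lie near 0, with a sign that flips under median-ratio scaling.

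Of 31 genes of adaptors, kinases, scaffolds and phosphatases that act with these receptors, 3 were called higher and 10 lower in LPS against DMSO, where 12.7% and 20.0% of all genes were. Their median log2 difference was -0.06, against -0.07 over all genes. The called genes with the largest changes were the Src-family kinase gene Src (1.36), the exchange factor gene Vav3 (0.83) and the calcineurin subunit gene Ppp3cb (0.81), which rose. The kinase genes Fgr (-1.30) and Map3k14 (-1.13) and the DAP10 adaptor gene Hcst (-0.93) fell. Src remained low, at 0.105 TPM in DMSO, 1.85 ± 0.383 TPM in LPS and 1.18 TPM in LPS + Ska. It passed the filter on low values only through the LPS groups, so the filter favoured its rises against DMSO. Both of these calls were lost in 0 of 16 alternatives, no filter among them.

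Between LPS + Ska and LPS, 1 of the 31 was higher and 3 were lower, where 3.35% and 6.14% of all genes were. Their median was -0.29 on the log2 scale, against -0.10 over all genes. Hcst rose, from 10.0, 8.59 and 11.4 TPM in LPS to 19.9, 14.8 and 24.9 TPM in LPS + Ska (log2 difference 0.90, adjusted p = 0.021 by limma, or 0.046 with the recovered values, lost in 5 of 17 alternatives). Vav3 fell by 0.91 (adjusted p = 0.0017, recovered 0.010), and the ubiquitin ligase gene Cblb fell by 0.69 (adjusted p = 0.0045, recovered 0.024). The calcineurin subunit gene Ppp3ca fell by 0.60 (adjusted p = 0.00074, recovered 0.0077). Against DMSO, 3 were higher in LPS + Ska, namely Src (0.98), Ppp3cb (0.68) and Ppp3r1 (0.67), and 11.4% of all genes were higher. There 12 were lower, where 25.3% of all genes were, among them Map3k14 (-1.25) and Fgr (-1.12).

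The direct partners named in the background were described after their values had been seen. Fcer1g, partner of Mincle, MCL and Dectin-2, stood at 383 ± 4.4 TPM in DMSO, 356 ± 8.39 TPM in LPS and 403 ± 25.0 TPM in LPS + Ska, and was called in none of the 3 comparisons. Tyrobp, partner of MDL-1, was 404 ± 30.6, 224 ± 3.88 and 285 ± 58.6 TPM. It fell by 0.85 on the log2 scale in LPS against DMSO (adjusted p = 0.00036 by limma), and its LPS + Ska columns, from 226 to 344 TPM, overlapped those of LPS. Card9 fell by 0.90 in LPS (adjusted p = 0.010) and was 44.4 ± 1.06 TPM in LPS and 45.9 ± 18.5 TPM in LPS + Ska. Syk, at 16.3 TPM in DMSO and LPS and 11.9 TPM in LPS + Ska, was not called, nor were Bcl10 and Malt1. All 3 stayed within the fold limits. In LPS + Ska against LPS, Syk was at -0.42 on the log2 scale (adjusted p = 0.0093 by limma, recovered 0.045). There Bcl10 was at 0.29 (adjusted p = 0.029, recovered 0.059) and Malt1 at -0.31 (adjusted p = 0.035, recovered 0.062).

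**Figure D5:**
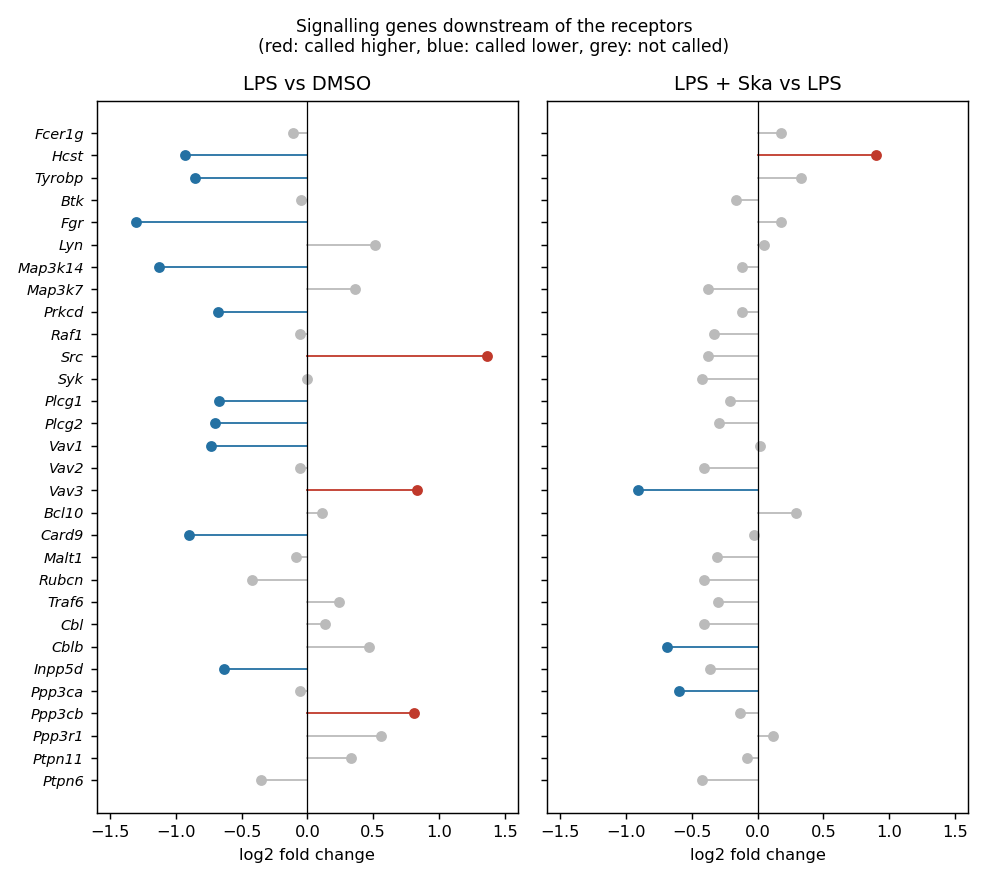
Difference in log2(TPM + 1) (horizontal axis) of 30 of the 31 signalling genes in LPS against DMSO (left) and LPS + Ska against LPS (right). Red marks the genes called higher (3 and 1), blue those called lower (10 and 3) and grey those not called.

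The labelled cell type was checked on 8 macrophage markers, of which 7 reached 1 TPM and Mertk was listed at 0 in all columns. Their summed level was 10631 to 11565 TPM in DMSO, 5549 to 5892 TPM in LPS and 11173 to 11349 TPM in LPS + Ska. Lyz2, the lysozyme gene, made up most of it, and without Lyz2 the sums were 1718 to 1892, 1265 to 1330 and 1142 to 1258 TPM. The sum with Lyz2 was lowest in LPS, as were Clec4d, Clec4a2 and Clec4a3. The sum without it was lower in both LPS groups than in DMSO, as were Clec7a, Clec12a and Clec10a. Clec4e, Clec4n, Clec5a and Clec4a1 followed neither sum, with means lowest in DMSO and highest in LPS + Ska. Clec4d in LPS + Ska also lay above its DMSO columns, while the sum with Lyz2 overlapped DMSO. Single markers, described after their values had been seen, differed. Csf1r and Cd68 held most of the sum without Lyz2 and were lower in both LPS groups than in DMSO. Itgam was 58.9 to 63.5 TPM in LPS and 69.9 to 91.5 TPM in LPS + Ska, against 65.5 to 66.4 TPM in DMSO. Fcgr1 was 33.65 to 34.5 TPM in LPS and 22.1 to 22.6 TPM in LPS + Ska, against 29.9 to 31.4 TPM in DMSO. Columns of Adgre1 and Aif1 overlapped those of DMSO. The part of these markers in the results was not tested. Markers of T cells, B cells, fibroblasts and epithelial cells all stayed below 1 TPM. Of 3 neutrophil markers S100a9 and Ly6g were listed at 0 and S100a8 reached 3.07 TPM, and of 3 dendritic cell markers Zbtb46 reached 1.41 TPM. Of 8 LPS-response genes 7 were tested, and 7 were higher in LPS than in DMSO, with log2 differences of 1.65 to 5.26. Between LPS + Ska and LPS, 3 of them were called lower (Il6, Il1a and Il1b) and 0 were called higher by limma. Nos2 (-0.39, adjusted p = 0.020, recovered 0.075) and Acod1 (-0.28, adjusted p = 0.022, recovered 0.056) were also lower but stayed within the fold limits. Only 1, Ptgs2, was higher at an unadjusted p below 0.05. The differences ran from -2.08 to 0.35. Il6 was listed at 0 in DMSO and was 4.35 ± 0.663 TPM in LPS and 0.259 ± 0.120 TPM in LPS + Ska. Il1b was 0.155 ± 0.191, 28.1 ± 4.18 and 10.2 ± 3.51 TPM, and Nos2 was listed at 0 in DMSO, with 37.5 ± 1.30 TPM in LPS and 28.5 ± 3.55 TPM in LPS + Ska. Il6, Il1a, Il1b and Nos2, below 1 TPM on average in DMSO, passed the filter on low values only through groups given LPS. Named after their values had been seen, Tnf was 210.4 ± 1.91 TPM in LPS and 207 ± 1.97 TPM in LPS + Ska, and Ptgs2 was 159 ± 2.96 and 203 ± 21.3 TPM, neither called between the LPS groups.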

How the data were processed

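RNA-seq values of 9 samples were used as the authors deposited them, in TPM, for 55401 genes by Ensembl identifier. The submitters' processing notes name fastp 0.20.1, HISAT2 2.2.1, StringTie 2.0 and the build mm10, and the annotation is not given in the sources used here. Symbols were matched for 55141 identifiers. The columns summed to 999895 to 1000145 TPM, and 12498 to 13012 genes reached 1 TPM in each.

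For the differences, all 9 columns were fitted without covariates on log2(TPM + 1) by limma 3.58.1 (eBayes with a trend, R 4.3.3), for genes with a mean of at least 1 TPM. The script was tested on simulated data. The columns simulated for the fit were independent, unlike the tied LPS and LPS + Ska columns, so its error rates were not checked for tied columns. Fold limits follow a legend of the study, whose methods name no test for the RNA-seq values. Same-numbered columns correlated in their deviations at 0.384, 0.151 and 0.128 between LPS and LPS + Ska, whose columns are tied, and at -0.032 to 0.08 between DMSO and either, so the numbers were not taken to pair samples. For each tied group, recovered values were replicate 5 plus and minus 0.5 times its difference to replicate 6. The alternatives tried were median-ratio scaling, a pseudocount of 0.1, no filter on low values, a mean of at least 5 TPM, the compared groups alone, no trend, a replicate block, recovered values, the adjusted p alone, and each column left out. Of the signalling and other lectin lists, up to 3 called genes per direction and comparison were named by size of change, and 1 signalling gene is counted but not reported by name. The genes and lists were chosen with earlier results of these data known. Gene positions came from GENCODE M21, promoters from RefSeq (GRCm38.p6). Figures were drawn with Python 3.11.15 and matplotlib 3.10.9.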

Additional observations from a re-analysis of the deposited data

How the results depend on the processing

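The values of Clec4d, Clec4e, Clec5a and Clec10a kept their direction and their side of the threshold in the 3 comparisons under each alternative with the fold limits, as did Clec7a and Clec12a against DMSO. Over the 10 genes, 164 values from alternatives kept both in LPS against DMSO, 147 in LPS + Ska against LPS and 161 in LPS + Ska against DMSO. In LPS + Ska against LPS, the sign of Clec12a turned to 0.03 under median-ratio scaling, and that of Clec7a to 0.06 under median-ratio scaling, 0.03 without LPS replicate 6 and 0.05 when LPS + Ska replicate 7 was left out (from -0.11 to 0.05 over the columns left out). None of these passed the test.

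The count of receptor genes higher in LPS + Ska than in LPS was 3 with no filter, 3 with recovered values and 4 with the replicate block. All genes called higher were 492 of 25181 with no filter. Of 12819 genes, they were 362 with recovered values and 427 with the replicate block. The receptor count was 3 to 5 over the columns left out, with 3 without LPS replicate 5, LPS replicate 6 or LPS + Ska replicate 5. All genes called higher were then 316 to 503 of 12819. For Clec4a3 in this comparison the log2 difference was 0.62 and no longer called with no filter, with no trend and with the replicate block, and 0.64 with recovered values. It ran from 0.46 to 0.80 over the columns left out, and was not called without DMSO replicate 6, LPS replicates 5, 6 or 7, or LPS + Ska replicates 5 or 6. For Clec4n it was 1.13 with a pseudocount of 0.1, 1.04 with no filter and 1.03 with recovered values, none called, and 0.95 to 1.12 over the columns left out, lost without LPS replicates 5 or 6 or LPS + Ska replicates 5 or 7. The replicate block changed no other call of the 10 genes.

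In LPS against DMSO, Clec4a2 was at -0.52 and not called under median-ratio scaling, and ran from -0.71 to -0.54 over the columns left out, lost without DMSO replicates 5 or 7 or LPS replicate 6. In LPS + Ska against DMSO, Clec4a1 was called at 0.75 with a pseudocount of 0.1 and 0.65 under median-ratio scaling, and ran from 0.36 to 0.73 over the columns left out. Clec4a2 ran from 0.20 to 0.59 and was called without LPS + Ska replicate 7, and Clec4a3 from -0.67 to -0.31 and was called without DMSO replicate 5 or LPS + Ska replicate 6. The count of receptor genes higher than DMSO was 3 to 5 over the columns left out, where 1357 to 1580 of all 12819 genes were. The causes were not tested. With a mean of at least 5 TPM, Clec4a1 and Clec10a had no value, since they were below that limit.

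By the adjusted p alone, 2 receptor genes were higher in LPS and 5 in LPS + Ska, each against DMSO. All genes called higher and lower were then 3354 and 4380 in LPS against DMSO, 1139 and 2524 in LPS + Ska against LPS, and 2915 and 5201 in LPS + Ska against DMSO. With a mean of at least 5 TPM, 516 genes were called lower between LPS + Ska and LPS, where fewer genes were tested, against 787 reported. Of the 31 signalling genes, 7 were higher in LPS than in DMSO by the adjusted p alone. Under median-ratio scaling 5 were, where 1970 of all 12819 genes were. In LPS + Ska against LPS, 3 were higher and 14 lower by the adjusted p alone. With no filter 0 were higher, where 492 of all 25181 genes were. Over the columns left out 0 to 1 were higher (0 without LPS replicates 5 or 6 or LPS + Ska replicates 5 or 7), where 316 to 503 of all genes were. Against DMSO, 5 were higher in LPS + Ska by the adjusted p alone.

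Both LPS groups hold at most 2 independent values per gene, so their spread is estimated from fewer values than the 3 columns imply. Sequencing depth is unknown, so genes of a few TPM, such as Clec4a1, Clec4n and Clec10a, carry a counting error that cannot be stated.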

Other observations

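Of 40 other genes with a C-type lectin domain, 4 had a mean of at least 1 TPM and 17 were listed at 0 in all columns. Cd72, an inhibitory receptor best known from B cells, was the highest, at 377, 403 and 363 TPM in DMSO, 170.2, 175 and 165 TPM in LPS, and 144, 136 and 152 TPM in LPS + Ska. It fell in both LPS groups against DMSO, by 1.16 in LPS (adjusted p = 5.3e-07 by limma) and by 1.40 in LPS + Ska (adjusted p = 2.4e-07) on the log2 scale. Colec12, a scavenger receptor with a collagen-like stalk, measured 93.3, 104 and 113 TPM in DMSO, 29.5, 28.02 and 31.0 TPM in LPS, and 49.5, 53.9 and 45.1 TPM in LPS + Ska, with no overlap between groups. Its log2 difference was -1.77 in LPS against DMSO (adjusted p = 4.5e-07) and 0.72 in LPS + Ska against LPS (adjusted p = 0.00066, or 0.0038 with recovered values). Cd302 stayed within the fold limits in the 3 comparisons and was not called, with log2 differences of -0.38 in LPS against DMSO (adjusted p = 0.0049) and 0.48 in LPS + Ska against LPS (adjusted p = 0.0048). Clec2l was low, at 1.59 ± 0.962 TPM in DMSO and 3.35 ± 0.491 TPM in LPS + Ska (log2 difference 0.81, adjusted p = 0.021, lost in 4 of 16 alternatives). Mrc1, the mannose receptor gene CD206, was at most 0.134 TPM in any column, named after its values had been seen.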
